A study of Mus musculus with 2 samples.

Results

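Cyclin-dependent kinase inhibitors, the 7 genes Cdkn1a, Cdkn1b, Cdkn1c, Cdkn2a, Cdkn2b, Cdkn2c and Cdkn2d, were compared between 2 RNA sequencing libraries of heart apex from E12.5 mouse embryos. They were chosen by gene symbol out of 29383 genes, rows of 1 symbol being summed, and all 7 were present. Each library was made from total RNA of 8 pooled hearts. The heterozygous control carried the Cre recombinase driver Nkx2-5cre and 1 floxed Ezh2 allele, Ezh2f/+, and the mutant carried the same driver with both alleles floxed, Ezh2f/f. Both groups thus hold Cre and at least 1 allele that Cre can recombine, and Nkx2-5 is active in the cardiac lineage, so cells of other lineages in the apex may keep Ezh2. The labels call the cells cardiomyocytes and name no sort. Ezh2 is the catalytic subunit of Polycomb repressive complex 2, which methylates histone H3 on lysine 27. With 1 library per genotype the spread between animals was not measured and no p-value was computed. Intervals below are 95% intervals of counting error only, and reads that carry no molecular identifier do not each stand for 1 molecule.

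Inhibitors of cyclin-dependent kinases hold cells in or before the G1 phase. The INK4 proteins, encoded by Cdkn2a (p16), Cdkn2b (p15), Cdkn2c (p18) and Cdkn2d (p19Ink4d), bind Cdk4 and Cdk6 and keep them from D cyclins. The CIP/KIP proteins p21 (Cdkn1a), p27 (Cdkn1b) and p57 (Cdkn1c) bind cyclin-CDK complexes more broadly. Cdkn2a also encodes p19Arf from an upstream first exon in another reading frame, and p19Arf restrains Mdm2, the ubiquitin ligase of p53. The Ink4a/Arf/Ink4b locus is a known target of Polycomb silencing, p21 is a classical p53 target, and p57 is an imprinted gene expressed in the embryonic heart.

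Promoter windows of the members that stood farthest apart are shown first, because Cdkn2a and Cdkn2b lie side by side and were both higher in the mutant library. RefSeq windows on GRCm38.p6, 250 bases before to 50 after a transcript start, matched 6 of the 7 members with 9 windows, and Cdkn1c had none. The windows were searched on both strands for the GC box GGGCGG, the E2F sequences TTTGGCGC and TTTCCCGC, the E-box CANNTG and the T-box sequence GGTGTGA. Matches to these are in capitals, and none overlap each other in the 3 windows below, which come from the minus strand of chromosome 4. They are the window of the upstream Cdkn2a start, which gives Arf (chr4:89294570-89294869), that of the downstream start, which gives p16 (chr4:89282143-89282442), and that of Cdkn2b (chr4:89310983-89311282).
Cdkn2a Arf start: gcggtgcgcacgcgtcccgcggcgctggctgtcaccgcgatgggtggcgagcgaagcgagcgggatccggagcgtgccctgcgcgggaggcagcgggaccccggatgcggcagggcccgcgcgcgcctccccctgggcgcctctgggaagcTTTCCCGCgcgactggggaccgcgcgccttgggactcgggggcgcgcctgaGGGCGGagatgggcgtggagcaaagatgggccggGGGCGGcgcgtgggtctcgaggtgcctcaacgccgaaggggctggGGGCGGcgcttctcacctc
Cdkn2a p16 start: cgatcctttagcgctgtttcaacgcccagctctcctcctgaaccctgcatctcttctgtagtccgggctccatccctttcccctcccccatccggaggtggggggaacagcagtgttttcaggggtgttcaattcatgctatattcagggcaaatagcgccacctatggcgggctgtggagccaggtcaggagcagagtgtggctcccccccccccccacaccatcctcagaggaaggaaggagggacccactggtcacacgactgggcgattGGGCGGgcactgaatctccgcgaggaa
Cdkn2b start: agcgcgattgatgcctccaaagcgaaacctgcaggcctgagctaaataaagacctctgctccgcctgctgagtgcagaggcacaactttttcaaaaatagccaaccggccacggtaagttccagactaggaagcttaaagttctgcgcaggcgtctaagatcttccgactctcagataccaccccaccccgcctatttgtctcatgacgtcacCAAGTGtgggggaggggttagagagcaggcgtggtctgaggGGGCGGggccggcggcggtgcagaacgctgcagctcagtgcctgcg

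The Arf window held 3 GC boxes and 1 E2F sequence, the p16 window 1 GC box, and the Cdkn2b window 1 GC box and 1 E-box. Of all 32851 windows, 35.7% held a GC box, 1.56% an E2F sequence, 72.3% an E-box and 3.98% the T-box sequence. The Arf window had 45 CG dinucleotides, and 98.4% of all windows had no more than that, against a median of 7. The p16 window had 12 (62.1% of windows had no more) and the Cdkn2b window 18 (71.9%). The windows of the Cdkn2a and Cdkn2b starts thus differed widely in CG content. Windows of members with small differences also spanned a wide range, with 30 CG dinucleotides at Cdkn1b, 22 at Cdkn2d, and 33 and 8 at the 2 starts of Cdkn2c. Matches are descriptions of the letters and were not tested as binding sites.

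Cdkn1a has an upstream start whose window holds a match to the p53 consensus, with 1 mismatch over 20 bases and no spacer. It is shown because p21 links the p53 part of the pathway to the kinases. The search for this motif was added after the windows had been read. The match (chr17:29090928-29090947, GRCm38.p6, in capitals) lies in the window chr17:29090729-29091028 on the plus strand, 2.84 kb before the downstream start.
Cdkn1a upstream start: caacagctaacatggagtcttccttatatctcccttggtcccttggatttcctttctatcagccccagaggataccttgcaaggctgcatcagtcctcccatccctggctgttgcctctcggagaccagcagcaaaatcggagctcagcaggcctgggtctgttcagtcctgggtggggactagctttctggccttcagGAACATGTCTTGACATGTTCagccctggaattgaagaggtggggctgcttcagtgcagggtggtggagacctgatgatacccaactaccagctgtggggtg

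Such a match was found in 22 of the 32851 windows (0.0670%), and among the 9 member windows it was found in this 1. The window of the downstream Cdkn1a start had 23 CG dinucleotides against 2 in the upstream one, with 2 GC boxes, 2 E-boxes and the T-box sequence.

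Depth was 13944617 heterozygote and 14122579 mutant reads. Levels are counts per 1000000 reads (CPM) with a scaling factor from a trimmed mean of log ratios (TMM), and they are not per length unless stated. Ezh2 itself had 493 heterozygote and 319 mutant reads, a ratio of 0.601 (0.521 to 0.694), counted over the whole gene model and not the floxed exons alone. Defining cardiomyocyte markers were abundant in both libraries: 12 of 12 listed genes reached 1 CPM, with summed levels of 52633 CPM in the control and 52165 CPM in the mutant library. Within this list single genes differed in both directions, with log2 mutant-to-heterozygote ratios from -0.31 to 0.74. Counting intervals of the ratio lay above 1 for 5 of them and below 1 for 7, or 5 and 5 with library totals as the scaling. The shares of all genes were 17.4% and 19.1%, or 26.3% and 11.4% with library totals. Summed levels of the other marker lists were 1030 and 991 CPM for endothelium (10 of 10 genes at 1 CPM), 186 and 193 CPM for epicardium (6 of 6), 2469 and 2326 CPM for fibroblasts and smooth muscle (10 of 10), and 6264 and 4380 CPM for erythroid cells (7 of 9 listed). Leukocyte markers had 81.1 and 67.6 CPM (10 of 10), and neural crest and neuronal markers 257 and 230 CPM (5 of 10, with Sox10 and Foxd3 at 0 in at least 1 library). With 1 CPM added to both levels, the single markers at least 2-fold apart were the adult globin gene Hbb-b1 and the pericyte gene Rgs5. Both were lower in the mutant, with ratios of 0.481 and 0.136 (48 and 7 reads for Rgs5). Myh11 had a ratio of 0.483 (0.227 to 0.981) with 25 and 13 reads, but a log2 ratio of only -0.59 with the added CPM. The part of cell composition in the results below was not tested. In pooled tissue, more cells that express a gene and more RNA per cell cannot be told apart.

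Cdkn2a (chromosome 4, 88920377 to 88940523, minus strand, in the coordinates of the files, a build that is not GRCm38) had 1 read in the heterozygote and 110 in the mutant. Its scaled level was 0.0739 CPM (0.00187 to 0.412) in the heterozygote and 7.56 CPM (6.21 to 9.11) in the mutant. The counting intervals of the libraries did not overlap. The mutant-to-heterozygote ratio was 102 (17.97 to 4073), whose width comes from the single read in the control. The log2 ratio with 1 CPM added to both levels, the scale used for counting genes, was 2.99, the rank of 2 among the 16185 genes that reached 1 CPM in either library. The gene model spans both the Arf and the p16 starts, so that the reads of the transcripts cannot be told apart in these counts.

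Cdkn2b (chromosome 4, 88952230 to 88956863, minus strand), which encodes p15, had 2 heterozygote and 26 mutant reads. This was 0.148 CPM (0.0179 to 0.534) against 1.79 CPM (1.17 to 2.62), again without overlap of the intervals, and a ratio of 12.1 (3.02 to 105). Its log2 ratio of 1.28 had rank 44 of the 16185 genes. Both members reached 1 CPM in the mutant library and not in the control, so genes as low as these in the control could enter the count only as higher. Together they had 3 heterozygote and 136 mutant reads, a ratio of 42.1 (14.1 to 207). In no other gene were heterozygote reads as few and mutant reads as many as in Cdkn2a, and 7 other genes matched or passed Cdkn2b in both respects. These 7 include Cdkn2a itself, and they count Atp2b2 and its second model PMCA2 apart.

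The other INK4 genes differed far less. Cdkn2c (chromosome 4, 109333481 to 109339262, minus strand), the gene of p18, had 326 heterozygote and 450 mutant reads, at 24.1 CPM (21.6 to 26.9) and 30.9 CPM (28.1 to 33.9). Its ratio was 1.28 (1.11 to 1.48). Its counting intervals did not overlap between the libraries.

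Cdkn2d, the gene of p19Ink4d, appears in 2 rows of the files on chromosome 9, where the RefSeq table for GRCm38.p6 lists 1 locus. The row on the minus strand (21092908 to 21095653) had 601 heterozygote and 591 mutant reads, and the row on the plus strand (123836860 to 123839607) had 562 and 574. The near-equal reads and spans of 2746 and 2748 bases mean that the division of reads between these rows is uncertain. Whether the same reads were counted in both rows is not known. If so, the summed level, also per length and in the family sum, is too high and its interval too narrow. Summed, Cdkn2d had 1163 and 1165 reads, 86.0 CPM (81.1 to 91.1) and 80.02 CPM (75.5 to 84.8), and a ratio of 0.931 (0.857 to 1.01). The counting interval included 1, and the minus-strand row alone had a ratio of 0.914 (0.814 to 1.03).

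**Figure D1:**
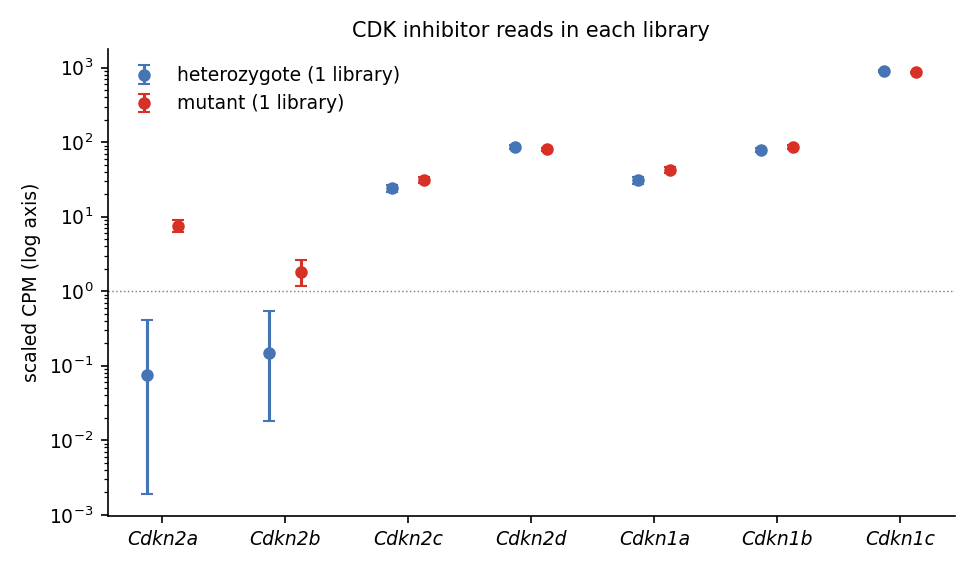
Scaled CPM (log axis) of the 7 inhibitor genes in the heterozygote (blue) and mutant (red) library, with 95% exact Poisson counting intervals and a dotted line at 1 CPM. Cdkn2a and Cdkn2b cross that line between the libraries, from 0.0739 to 7.56 CPM and from 0.148 to 1.79 CPM, while the other members lie above it in both.

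Among the CIP/KIP genes, Cdkn1a (chromosome 17, 29230720 to 29237667, plus strand) had 414 heterozygote and 616 mutant reads. Its level was 30.6 CPM (27.7 to 33.7) and 42.3 CPM (39.0 to 45.8), with no overlap of the intervals, and a ratio of 1.38 (1.22 to 1.57). Cdkn1b (chromosome 6, 134870435 to 134875213, plus strand), the gene of p27, had 1066 and 1260 reads, 78.8 CPM (74.1 to 83.7) and 86.5 CPM (81.8 to 91.5), which overlap. Its ratio of 1.10 had a counting interval just above 1 (1.01 to 1.19).

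Cdkn1c (chromosome 7, 150644245 to 150646901, minus strand), the imprinted gene of p57, was the most abundant member, with 12187 heterozygote and 12561 mutant reads. Its level was 901 CPM (885 to 917) and 863 CPM (848 to 878), and its ratio 0.958 (0.934 to 0.982). The direction depended on the scaling: with library totals alone the ratio was 1.02 (0.993 to 1.04). This scaling moves the log2 ratio of every gene up by 0.09, which is more than the counting error of Cdkn1c.

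**Figure D2:**
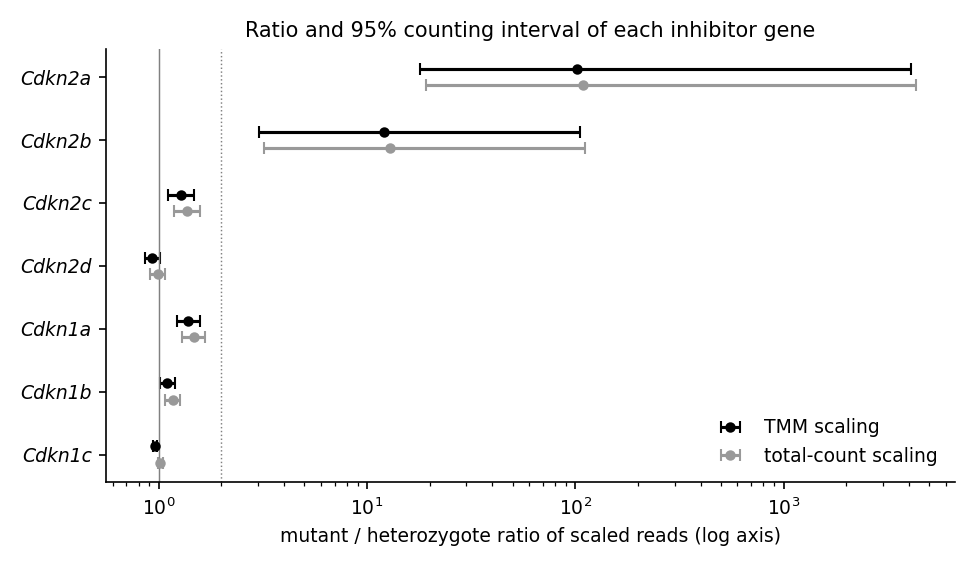
Mutant-to-heterozygote ratio of scaled reads (log axis) with its 95% counting interval for each member, with TMM scaling in black and total-count scaling in grey; lines mark ratios of 1 and 2. Cdkn2a (102) and Cdkn2b (12.1) lie to the right of 2 with wide intervals, Cdkn1a, Cdkn1b and Cdkn2c lie between 1 and 2, and Cdkn1c moves from below 1 (0.958) to above 1 (1.02) with the scaling.

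Among the 7 members, 2 passed 2-fold toward the mutant and 0 toward the control. Of all 16185 genes, 0.605% were this far higher and 0.173% this far lower, 0.778% in either direction. Both are the neighbours Cdkn2a and Cdkn2b, and since published work on this mouse and earlier results of these data had already named them, their count is not independent evidence. By the counting interval alone, 5 members lay above a ratio of 1 and 1 below, where the shares of all genes were 17.4% and 19.1%. With library totals as the scaling, 5 lay above and 0 below, against 26.3% and 11.4% of all genes. The median log2 ratio of the members was 0.35 and that of all genes -0.01, or 0.43 and 0.07 with library totals. Without Cdkn2a and Cdkn2b the members' median was 0.13. Summed over the family, reads differed little, with 1121 CPM in the control and 1112 CPM in the mutant library (ratio 0.992, 0.970 to 1.01), or a ratio of 1.05 (1.03 to 1.08) with library totals, on the other side of 1. Cdkn1c makes up most of the sum. Without it the ratio of the sums was 1.13 (1.08 to 1.19), or 1.21 (1.15 to 1.27) with library totals.

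**Figure D3:**
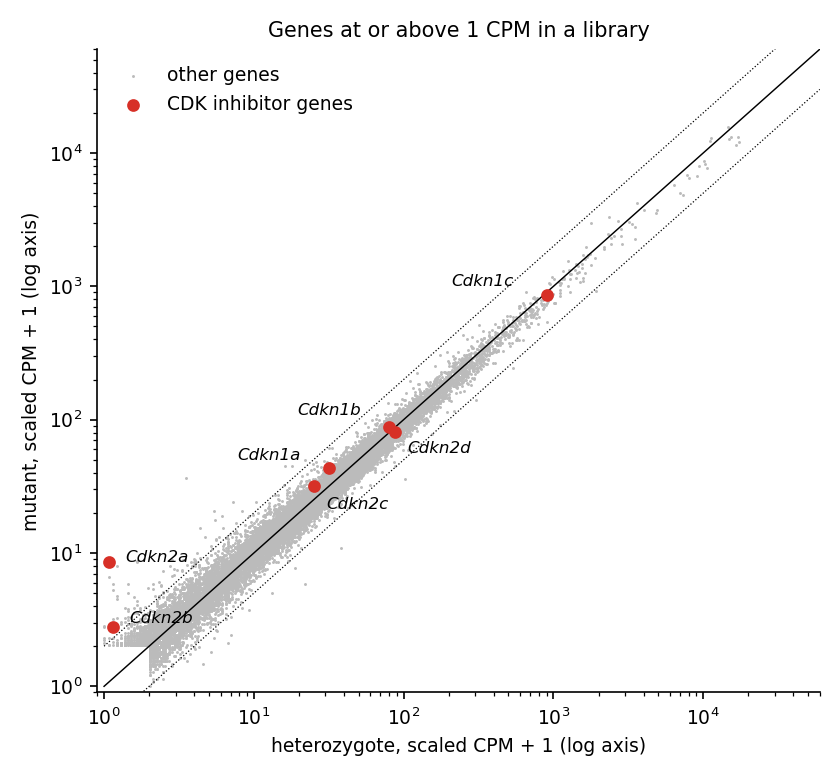
Scaled CPM plus 1 in the heterozygote (x, log axis) and the mutant (y, log axis) for the 16185 genes that reached 1 CPM in either library; the solid line marks equal levels and dotted lines a factor of 2. The members (red) follow the diagonal except Cdkn2a and Cdkn2b, which lie at the left edge above the upper dotted line.

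Per length, over the longest GENCODE M21 transcript of each gene, the heterozygote levels ran from Cdkn1c (474 CPM per kb) over Cdkn2d (60.4), Cdkn1b (17.3), Cdkn1a (14.7) and Cdkn2c (9.75) down to Cdkn2b (0.106) and Cdkn2a (0.0826 CPM per kb). The last pair rests on 2 reads and 1 read and has no order beyond counting error. In the mutant Cdkn2a reached 8.44 CPM per kb, below Cdkn2c at 12.51, and Cdkn2b 1.28 CPM per kb. Cdkn1a (20.3) and Cdkn1b (19.01 CPM per kb) stood in the opposite order from the heterozygote, but over the shortest coding transcripts Cdkn1b was above Cdkn1a in both libraries (44.9 against 33.2 and 49.3 against 45.9 CPM per kb), so their order is not settled. Cdkn2b and Cdkn2a were thus the lowest members in the mutant too, and Cdkn1c was the highest in both libraries (454 CPM per kb in the mutant).

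Among the models around the Ink4 locus, Mtap, the gene of methylthioadenosine phosphorylase, lies 93.4 kb from Cdkn2a and had 719 heterozygote and 679 mutant reads (ratio 0.877, 0.789 to 0.976). A long model without a symbol, which spans Cdkn2b on the opposite strand, had 2 and 5 reads. Another such model 1.89 kb from the end of Cdkn2a had 0 and 0. A count of 0 was taken to allow up to 3 counts in a library, a fixed floor and not an end of the counting intervals given elsewhere. The sources used here do not state whether counting used strand, so reads of Cdkn2b and of the spanning model cannot be told apart.

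**Figure D4:**
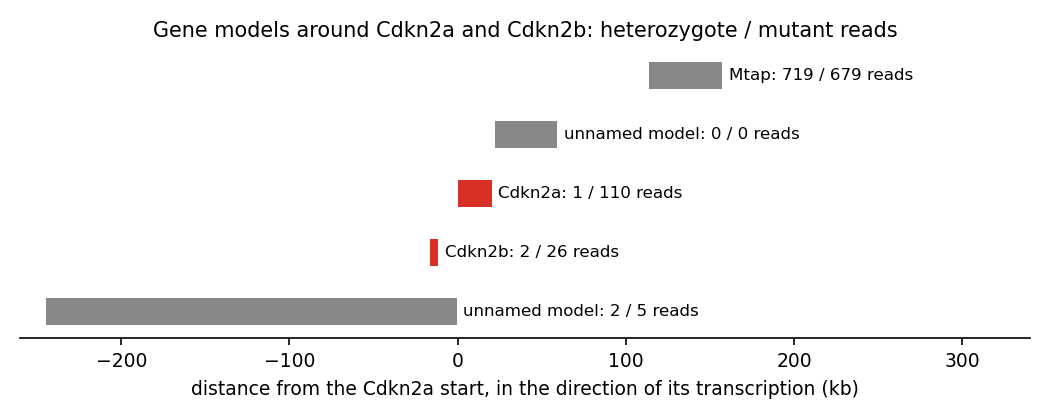
Gene models around Cdkn2a, drawn by distance from its start in the direction of its transcription (kb), with heterozygote and mutant reads beside each bar. Cdkn2a (1 and 110 reads) and Cdkn2b (2 and 26) are in red, and Mtap (719 and 679) and the 2 nearest models without a gene symbol are in grey. A further model without a symbol, 189.96 kb away with 0 reads in both libraries, is not drawn.

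Around the other members, 0 neighbours within 200 kb that had a symbol and reached 1 CPM were at least 2-fold apart on the log2 scale with the added CPM. Of all genes only 0.778% were this far apart, so 0 among so few neighbours says little. With Mtap, 48 neighbours carried a symbol, 32 of them at 1 CPM or more, and their median log2 ratio was 0.01. Beside Cdkn1a, the ratios of Sfrs3, Stk38, Kctd20, Cpne5 and Ppil1 ran from 0.754 for Sfrs3, a splicing factor gene, to 2.04 (1.59 to 2.65) for Cpne5, a copine gene with 90 and 198 reads whose log2 ratio with the added CPM was 0.93. Beside Cdkn1b, those of Gpr19, Crebl2, Dusp16 and its second model MKP-7, Ddx47 and Gprc5a ran from 0.834 to 1.04. Beside Cdkn2c, Faf1 had 0.818 and Rnf11 0.878, both below 1 where Cdkn2c was above. Beside the minus-strand row of Cdkn2d, Kri1, Atg4d, Keap1, Slc44a2 and Qtrt1 ran from 0.914 to 1.12. Over all 11 neighbours of this row at 1 CPM the ratios reached 1.47 (1.16 to 1.86), for Pde4a, a phosphodiesterase gene with 119 and 188 reads, and Dnm2, a dynamin gene, had 1.19 (1.08 to 1.31). Beside the plus-strand row, Fyco1 had 1.0001 (0.929 to 1.08) and the chemokine receptor gene Ccr1 0.199 (0.0367 to 0.713), with 14 and 3 reads.

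Cdkn1c lies in an imprinted cluster, of which 13 genes were listed and 11 reached 1 CPM. Their median log2 ratio was 0.10, or -0.01 once a trend on GC content and length was removed. Of these genes 0 were at least 2-fold apart, where the share of all genes was 0.778%. Above 1 lay 2 counting intervals and below it 1 (5 above and 1 below with library totals). The shares of all genes were 17.4% above and 19.1% below, or 26.3% and 11.4% with library totals. H19, a noncoding RNA, and Igf2, a growth factor, were by far the most abundant, with ratios of 1.08 (1.07 to 1.08) and 1.11 (1.11 to 1.12), the 2 whose intervals lay above 1. Nearer to Cdkn1c, Nap1l4 had 0.873 (0.832 to 0.917), Cd81 1.03 (0.995 to 1.06), and Kcnq1ot1, the antisense RNA of the domain, 0.794 (0.602 to 1.05) with 117 and 100 reads. Phlda2, a placental growth regulator 40.6 kb from Cdkn1c, had 2 heterozygote and 13 mutant reads, under 1 CPM in both (ratio 6.04, 1.37 to 55.1). Slc22a18 had 8 and 15 reads (1.74, 0.693 to 4.74), Kcnq1, a potassium channel gene, 0.937 (0.779 to 1.13), and Cars 1.10 (0.936 to 1.30). Cdkn1c and its abundant neighbours thus had ratios within 0.873 to 1.11.

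The genes whose products the inhibitors bind are G1 and S phase cyclins and kinases, and 10 of 11 reached 1 CPM. None was 2-fold apart, 2 counting intervals lay above 1 and 5 below, and the median log2 ratio was -0.11 (2 above, 3 below and -0.02 with library totals). For each list here, the shares of all genes were 17.4% above and 19.1% below, or 26.3% and 11.4% with library totals. The share at least 2-fold apart was 0.778%, so 0 in a short list says little. Ccnd2, the most abundant D cyclin gene in read counts, had 7942 heterozygote and 10080 mutant reads (ratio 1.18, 1.15 to 1.21), and Ccnd1 1.07 (1.004 to 1.14). Cdk4, the partner that INK4 proteins bind, had 3664 and 3252 (0.825, 0.786 to 0.865), Ccnd3 0.963 (0.926 to 1.002) and Ccna2 0.888 (0.837 to 0.943). The other genes of this list with an interval below 1 were Ccne2 (0.713), Cdk2 (0.865) and Cdk1 (0.776). Here and below, genes that complete a small count were added after their values were seen. Of the 13 RB and E2F genes, which act below these kinases, 3 intervals lay above 1 and 1 below, with a median of 0.09 (6 above, 1 below and 0.17 with library totals). E2f4 and E2f8, both repressive E2F genes, had ratios of 1.13 (1.01 to 1.27) and 1.14 (1.003 to 1.29). Rbl2, a relative of Rb1, had 1.15 (1.002 to 1.33), and the activator E2f1 0.753 (0.645 to 0.880). Rbl1, another relative of Rb1, had 0.991 (0.870 to 1.13), and Tfdp1, the dimer partner of E2F proteins, 0.926 (0.824 to 1.04). Genes of S phase and mitosis, 28 of 28 at 1 CPM, had a median of -0.06, with 3 intervals above 1 and 10 below. That median was 0.02 with library totals, with 8 above and 7 below, so the sign of this list rests on the scaling. Top2a, the topoisomerase of dividing cells, had 0.858 (0.827 to 0.890), Mki67 0.988 (0.946 to 1.03), and the ribonucleotide reductase genes Rrm1 and Rrm2 0.775 (0.731 to 0.821) and 1.13 (1.07 to 1.20). The mitotic genes Plk1 (1.21) and Cdc20 (1.19) were with Rrm2 the 3 above 1.

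On the Arf side, the 6 genes listed around Mdm2 and p53 had a median log2 ratio of -0.06, with 1 interval above 1 and 1 below, and 0.03 with library totals, with 2 above and 1 below. Trp53 had 962 and 1093 reads (1.06, 0.967 to 1.15). Npm1, which holds Arf in the nucleolus, had 0.811 (0.774 to 0.849), and Huwe1, a ubiquitin ligase that Arf inhibits, 1.14 (1.10 to 1.18). Usp7, a deubiquitinase of Mdm2 and p53, had 0.983 (0.904 to 1.07). Of 20 p53 target genes other than Cdkn1a, 7 intervals lay above 1 and 0 below, where all genes had 17.4% above and 19.1% below. The median was 0.18, and 16 had log2 ratios above 0, as did 7897 of all 16185 genes. The list was chosen with earlier results of these data known, so its counts are not independent evidence. With library totals 13 intervals lay above 1 and 0 below, against 26.3% and 11.4% of all genes, and the median was 0.27. Only the pro-apoptotic gene Pmaip1 was at least 2-fold higher, with 6 and 58 reads (8.98, 3.89 to 25.5). The 4 targets with the highest mean CPM were near 1. Ccng1, a cyclin G gene, had 1.05 (0.994 to 1.12), Plk2 1.03 (0.957 to 1.10), Bax 1.03 (0.934 to 1.13) and Perp 0.924 (0.823 to 1.04). Perp had a mean of 41.4 CPM, and Btg2 (39.0), Trp53inp1 (37.9) and Ddit4 (34.5) came next in level. Besides Pmaip1, the targets with an interval above 1 were the stress-response gene Ddit4 (1.92, 1.68 to 2.20, with 320 and 661 reads), Sesn2 (1.68, 1.28 to 2.22), the pro-apoptotic gene Bbc3 (1.45, 1.06 to 1.99), Phlda3 (1.37, 1.16 to 1.63), Trp53inp1 (1.23, 1.09 to 1.40) and Btg2 (1.13, 1.003 to 1.28). Cdkn1a had a ratio of 1.38. The targets just named were picked by their intervals above 1, so its place among their ratios is not a comparison with the list.

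**Figure D5:**
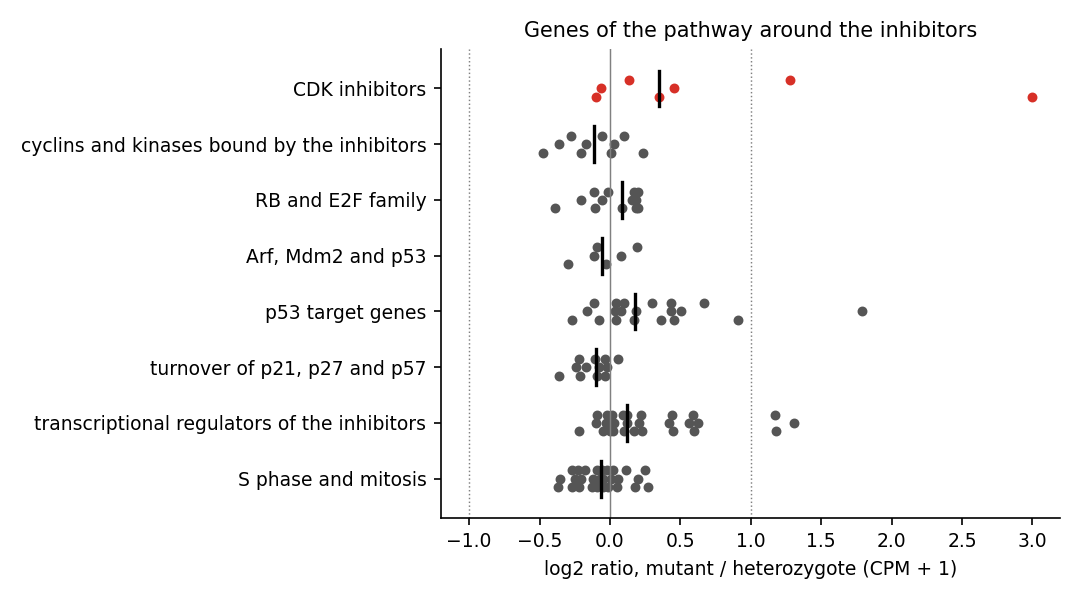
Log2 ratio of mutant over heterozygote (CPM plus 1) for each gene at or above 1 CPM among the members (red) and in 7 lists of the surrounding pathway (dark grey), with each median as a black bar and dotted lines at a factor of 2. Besides Cdkn2a and Cdkn2b, the points past the line are Pmaip1, Tbx2, Tbx3 and Bmi1. The medians of the Mdm2 and p53 list and of the S phase list change sign with library totals.

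Regulators known to act on the inhibitors' genes included 3 of 29 genes at least 2-fold apart, all higher in the mutant, where the share of all genes was 0.605%. This list was also chosen with earlier results of these data known, so the count is not independent evidence. Tbx2 and Tbx3, T-box repressors of Cdkn2a and Cdkn1a, had 35 and 103 reads (2.73, 1.85 to 4.14) and 100 and 287 reads (2.67, 2.12 to 3.38). Bmi1, the Polycomb repressive complex 1 gene known as a repressor of the Ink4a/Arf locus, had 284 and 709 (2.32, 2.02 to 2.67). These repressors were thus higher in the same library as Cdkn2a. Kdm6b, a demethylase of histone H3 lysine 27 that acts on this locus, had 1559 and 2487 (1.48, 1.39 to 1.58). Over the list 13 intervals lay above 1 and 1 below, that of Rnf2, the Polycomb ubiquitin ligase gene (0.857, 0.781 to 0.940). The median was 0.12 (16 above, 1 below and 0.21 with library totals). Kdm6b was the most abundant gene of the list, with a mean of 143 CPM. The next in level, Ets1 (0.933, 0.864 to 1.01), Hey2 (1.02, 0.945 to 1.10) and Ets2 (1.01, 0.920 to 1.11), were near 1. Genes that act in the turnover of p21, p27 and p57 had 0 intervals above 1 and 6 of 12 below, with a median of -0.10 (-0.01 with library totals, 3 below). For this list and the regulators, the shares of all genes were 17.4% above and 19.1% below, or 26.3% and 11.4% with library totals. The ubiquitin ligase subunits Skp1a and Ddb1 had 0.858 (0.804 to 0.916) and 0.937 (0.904 to 0.971), Cks1b, a cofactor in p27 recognition, 0.889 (0.830 to 0.953), and Cops5, which exports p27 from the nucleus, 0.777 (0.732 to 0.826). These are transcript levels, and the proteins were not measured.

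Genes most alike to Cdkn2a in level were found by the distance between log2 levels (CPM plus 1) over the 2 libraries. They included Otx2 (distance 0.37), a head and forebrain regulator with 1 and 82 reads, Sema5b (0.63), an axon guidance gene with 9 and 111, Isl1 (0.63), a regulator of cardiac progenitors with 9 and 112, and Pax6 (0.70), an eye regulator with 6 and 70. Other models overlap Isl1, Pax6 and Cyp1b1 and can share their reads. Nearest to Cdkn2b were Atp2b2, a plasma membrane calcium pump gene with 0 and 26 reads, its second model PMCA2 with 0 and 27 (both at distance 0.20), and Cyp1b1 (0.20), a cytochrome P450 gene with 2 and 32 reads. With 2 libraries such likeness means only similar levels in each.

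GC content could be compared for all 7 members, whose longest transcripts ran from 43.1% GC in Cdkn1b to 60.2% in Cdkn2a. With a trend on GC content and length removed, the log2 ratio of Cdkn2a was 2.95, that of Cdkn2b 1.27 and that of Cdkn1a 0.42. That of Cdkn2c went from 0.35 to 0.21, that of Cdkn1b from 0.13 to 0.23, that of Cdkn2d from -0.10 to -0.12 and that of Cdkn1c from -0.06 to -0.20. Each kept its sign, and the smaller differences were of the size of this adjustment.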

How the data were processed

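Reads per gene model and CPM were used as deposited. The deposited read counts are whole numbers, per the file headers, and the authors' CPM are counts per 1000000 reads of the library total without gene length, which recomputation matched to within 4.91e-11. The aligner, counter, strand setting and genome build were not given in the sources used here. Chromosome 1 reaches 197002909 in the files, past the last GRCm38 RefSeq gene (195291439), so no reference coordinates were joined to them. Starts have 1 added.

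Rows of 1 symbol were summed (29595 models, 29383 genes, 185 with more than 1 row). Counts were scaled by TMM in edgeR 4.0.16 (R 4.3.3), with factors of 0.970 and 1.03. Ratios have 95% exact conditional Poisson intervals (SciPy 1.17.1). These were tested on simulated Poisson counts with the scaling known, which hold no spread between animals, no duplicate reads and no scaling error. Genes count as 2-fold apart from log2 ratios with a pseudocount of 1 CPM, at 1 CPM or more in a library. List symbols matched directly (196), by synonym (7) or by accession (1), and 2 did not match. The members, lists and the rule for named genes (2-fold members, else up to 4 abundant ones, neighbours within 200 kb, and nearest genes by level) were chosen with earlier results of these data known. Some genes named by that rule are not reported here, and counts and sums include them. Alternatives were total-count and upper-quartile scaling, DESeq2 1.42.0 size factors, pseudocounts of 0.1 and 5 CPM, other filters, and removal of a trend quadratic in GC content and in log2 length (longest GENCODE M21 transcripts), fitted at a mean of at least 5 CPM.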

Additional observations from a re-analysis of the deposited data

How the results depend on the processing

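The count of 2 members at least 2-fold apart was kept under total-count and upper-quartile scaling, DESeq2 size factors, a pseudocount of 0.1 CPM, no filter, removal of the GC and length trend, and the minus-strand row of Cdkn2d alone, an alternative chosen after seeing the data. A pseudocount of 5 CPM left 1 member, and so did a filter at 5 CPM (1 member), which Cdkn2b does not reach. Without Cdkn2a and Cdkn2b it was 0. The members' median log2 ratio of 0.35 was 0.24 with the filter at 5 CPM, 0.23 with the GC and length trend removed, and 0.13 without Cdkn2a and Cdkn2b. The Cdkn1c ratio of 0.958 was 1.02 under total-count scaling, on the other side of 1, because that scaling leaves out the TMM factors. The other 6 ratios stayed within their counting intervals under the 3 other scalings. No paired analysis was possible because each genotype has 1 library, and for the same reason no replicate could be left out. Depth limits Cdkn2a and Cdkn2b most, with 1 and 2 reads in the heterozygote.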
